A study of Homo sapiens with 6 samples.

Results

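The lysosomal genes described here were 67 of the 20348 genes in the expression table of MV4-11 cells, an established human acute myeloid leukemia (AML) line. They were all rows whose symbol begins with ATP6V0 or ATP6V1, which name subunits of the vacuolar proton pump (V-ATPase), together with a list of 44 lysosomal hydrolases, cofactors, membrane proteins, sorting receptors and transcription factors. The symbol rule found 23 rows, and the list held 25 hydrolases, 4 soluble cofactors, 9 membrane proteins, 3 sorting receptors and 3 transcription factors. The study asked which transcripts accompany the inhibition of AML cells by WNK463, a compound that blocks WNK kinases. The Control group was 3 untreated samples, and the WNK463 group was 3 samples that received the compound at 1 μM, both read at 48 h. All 6 samples were of this single line, with 1 dose and 1 time point. The labels do not say whether samples were separate cultures, so the p-values measure only the spread between these samples, which may be technical.

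The lysosome is the acidic compartment in which cells break down proteins, glycans, glycosaminoglycans, lipids and nucleic acids. The V-ATPase acidifies it: a V1 sector in the cytosol splits ATP and turns a rotor, and a membrane-bound V0 sector carries protons across the membrane. Most hydrolases reach the lysosome by mannose 6-phosphate receptors, and many lysosomal genes carry a promoter element built on the letters CACGTG to which the transcription factors TFEB, TFE3 and MITF bind.

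Enriched mRNA was sequenced on an Illumina instrument, and the deposited estimated counts summed to between 14915745 and 17411780 per sample. Levels are given as CPM, counts per 1000000 on library sizes scaled by TMM, and, where genes are compared with each other, as the deposited TPM, which are per length. A member was called higher or lower with WNK463 where edgeR's quasi-likelihood test over 11973 genes gave a Benjamini-Hochberg adjusted p below 0.05. The label of the line was checked with 8 genes of myeloid AML cells, all of which passed the filter on low counts. FLT3 stood at 369 ± 18.5 CPM (SD, n = 3) in Control and 319.9 ± 3.56 CPM (SD, n = 3) in WNK463, and SPI1 at 218 CPM in both groups. In that list 4 genes were higher and 3 lower, from PTPRC, at 91.6 ± 9.60 and 210.4 ± 4.90 CPM (log2 fold change 1.20), to MPO, at 7.47 ± 0.423 and 1.31 ± 0.479 CPM (log2 fold change -2.50). The 4 T cell, 4 erythroid, 4 fibroblast and 4 epithelial markers were all below the filter, as were 3 of 4 B cell markers. The other one, PAX5, was low and called higher (1.03 ± 0.111 and 2.00 ± 0.0750 CPM, log2 fold change 0.95, edgeR adjusted p = 0.0084). In bulk RNA, fewer cells of a type and less RNA per cell cannot be told apart.

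Of the 67 members, 63 could be tested, and 37 were higher and 10 lower with WNK463. The 37 higher were 58.7% of the members tested, beside 35.5% of all genes tested, and the 10 lower were 15.9%, beside 35.3% of all genes. Changes were common across the table: 70.8% of all genes tested passed in one direction or the other. The median log2 fold change of the 63 members was 0.30, beside 0.02 over all genes. At least 2-fold higher were 9 members, 14.3% of those tested, beside 9.62% of all genes, and 0 members were at least 2-fold lower, beside 5.55% of all genes. Among the 9, ATP6V1G2 (6, 4 and 9 counts in Control, 86, 95 and 82 in WNK463) passed the filter on low counts only through the WNK463 samples. Its being tested thus depended on its rise, and the same filter applied to all genes. The 3 WNK463 samples lay above all 3 Control samples for 39 members, beside 37.1% of all genes, and below them for 10, beside 36.4%. Groups did not overlap in either direction in 73.5% of all genes. The zero point depended on the scaling: with total counts in place of TMM the median over all genes moved from 0.02 to 0.17, and the members' median moved with it, from 0.30 to 0.45. The members called were then 43 higher and 6 lower, while the shares of all genes became 46.1% higher and 26.1% lower. With limma on log2(TPM + 1) 41 members were higher and 5 lower, beside 42.4% and 21.7% of all genes, and on log2(TPM + 0.1) 40 and 4, beside 41.4% and 21.3%.

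The classes differed in their counts. All class counts here and below stand beside 35.5% higher and 35.3% lower over all genes tested. Of the 20 V-ATPase rows tested, 11 were higher (55%) and 1 lower (5%). Of the 24 hydrolases tested, 13 were higher (54.2%) and 8 lower (33.3%, near the share of all genes), and 61.9% of the calls were thus toward higher levels. That share was 72.2% with total counts (13 higher, 5 lower), 77.8% with limma on log2(TPM + 1) (14 higher, 4 lower) and 81.2% on log2(TPM + 0.1) (13 higher, 3 lower). Over all genes the same share was 50.2% with TMM, 63.9% with total counts, 66.1% on log2(TPM + 1) and 66.1% on log2(TPM + 0.1). Of the 16 cofactors, membrane proteins and sorting receptors, 10 were higher (62.5%) and 1 lower (6.25%). The counts were 15 and 0 under total counts and 13 and 0 under upper-quartile scaling. Those scalings called 46.1% and 41.7% of all genes higher and 26.1% and 29.7% lower. All 3 transcription factors were higher. No difference between classes was tested.

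**Figure D1:**
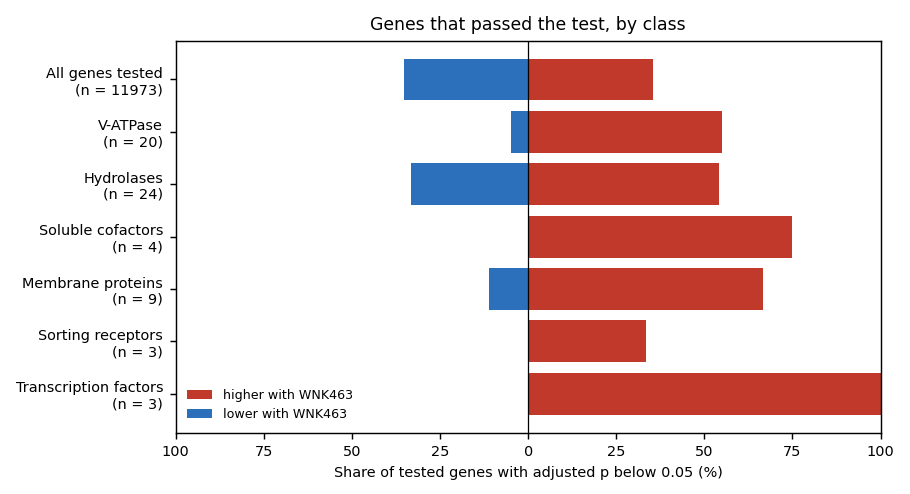
Share of tested genes with an adjusted p below 0.05 in each class, higher with WNK463 to the right (red) and lower to the left (blue), with the number of genes tested beside each bar. Bars for all 11973 genes reach 35.5% and 35.3%, and the hydrolases were the class with the largest lower share, 33.3%.

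Promoter windows from RefSeq (GRCh38.p14), each from 250 bases before to 50 bases after an annotated start, were matched to 51 of the 67 members by symbol. CACGTG, which reads the same on both strands, occurred in at least 1 window of 15 of the 51 members (29.4%), beside 12.8% of 9647 tested genes with a window. Counted by window, it was in 17 of 82 members' windows (20.7%) and in 9.46% of the 14042 windows of tested genes. The longer palindrome TCACGTGA, which contains it, was in 9 members and 2.38% of the tested genes, and the 10-base palindrome with 1 further G before and C after it was in 6 members and 0.954% of the tested genes. The letters were not limited to members that rose: they were in the windows of 10 of 28 members called higher (35.7%), 4 of 13 tested members that did not pass (30.8%) and 1 of 8 called lower (12.5%). Of the 5 members at least 2-fold higher that had a window, only PLD3 held them. A match is a description of these letters and not a measured binding site. The 7 stretches below show the 6 members with the 10-base palindrome and LAMP1, whose window held 6 copies of CACGTG, more than the other printed members. Capitals mark CACGTG, each stretch reads 5′ to 3′ on the strand of its gene, and the set spans members that rose, fell or did not pass.
ATP6V1G1 (rose; chr9:114587699-114587728, plus strand): acgctgtgcggtCACGTGacaacgggggcg
GAA (rose; chr17:80101493-80101567, plus strand): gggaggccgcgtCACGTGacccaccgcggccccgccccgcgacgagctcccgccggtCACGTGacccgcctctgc
PLD3 (rose; chr19:40348503-40348577, plus strand): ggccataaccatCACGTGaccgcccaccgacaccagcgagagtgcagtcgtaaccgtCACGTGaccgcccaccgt
IGF2R (rose; chr6:159968938-159969071, plus strand): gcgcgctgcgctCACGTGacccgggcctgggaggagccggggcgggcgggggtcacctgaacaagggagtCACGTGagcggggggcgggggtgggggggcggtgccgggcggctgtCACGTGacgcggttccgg
MCOLN1 (not passed; chr19:7522571-7522627, plus strand): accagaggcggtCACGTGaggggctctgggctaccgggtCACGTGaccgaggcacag
GALNS (fell; chr16:88856962-88857133, minus strand): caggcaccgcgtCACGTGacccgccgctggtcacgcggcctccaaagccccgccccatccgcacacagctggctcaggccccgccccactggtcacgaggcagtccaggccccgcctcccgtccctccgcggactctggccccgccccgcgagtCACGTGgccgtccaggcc
LAMP1 (rose; chr13:113297035-113297255, plus strand): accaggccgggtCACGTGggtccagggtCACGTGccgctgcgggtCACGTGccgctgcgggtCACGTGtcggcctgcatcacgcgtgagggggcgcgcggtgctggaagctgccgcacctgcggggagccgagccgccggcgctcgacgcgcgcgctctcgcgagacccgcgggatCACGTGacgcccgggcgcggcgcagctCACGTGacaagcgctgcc
Both copies in GAA and in PLD3 lay within 75 printed bases. Those in GALNS lay at the ends of a 172-base stretch, and the stretch of LAMP1 covered 221 bases.

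**Figure D2:**
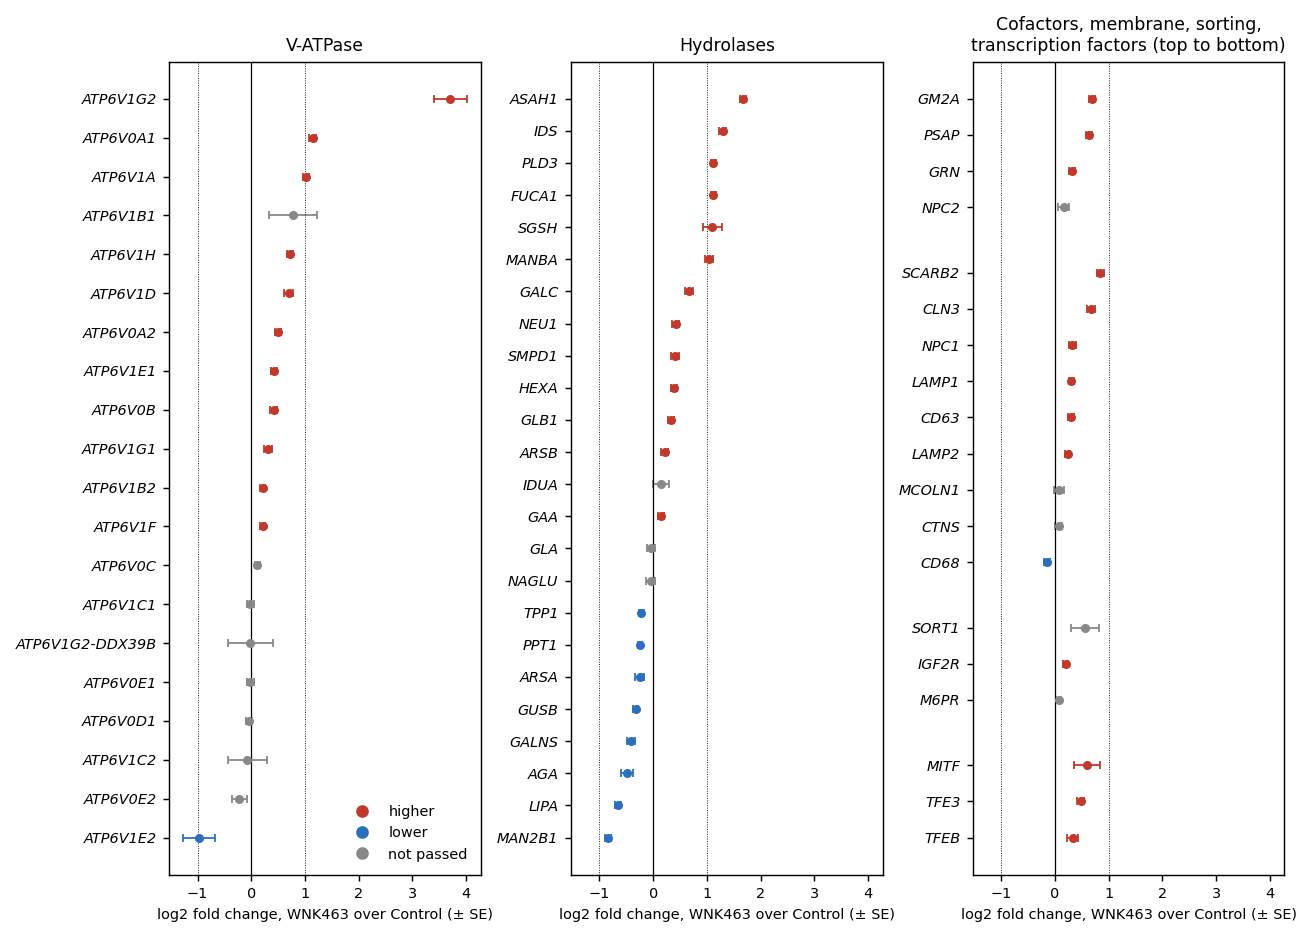
Log2 fold change of each of the 63 members tested, WNK463 over Control, with its standard error, from 3 samples per group (red higher, blue lower, grey not passed; dotted lines at 2-fold). The V-ATPase panel runs from ATP6V1G2 at 3.71 to ATP6V1E2 at -0.97, and the hydrolase panel from ASAH1 at 1.67 to MAN2B1 at -0.84.

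In the V0 sector of the proton pump, 3 of the 7 genes tested that the symbol rule matched were higher and 0 lower. The higher share of 42.9% was near the 35.5% of all genes, of which 35.3% were lower. The rule leaves out TCIRG1, a further gene of subunit a. It was called lower (log2 fold change -0.15) and is described below with the isoform shares. ATP6V0A1, one isoform of the large subunit a that lines the proton path, showed the largest rise. It measured 33.9, 28.2 and 31.2 CPM in Control and 69.5, 65.2 and 71.6 CPM in WNK463. All treated samples lay above all controls, a 2.21-fold rise (log2 fold change 1.14, SE 0.07, edgeR adjusted p = 1.8e-10). ATP6V0A2, another isoform of subunit a, rose 1.42-fold, from 70.6 ± 1.05 to 100.3 ± 4.60 CPM (SD, n = 3 per group). ATP6V0B, a proteolipid of the rotating ring, had the highest mean TPM of V0 over both groups, at 205 ± 14.8 in Control, where ATP6V0C was at 230.1 ± 7.39, and 313 ± 22.7 in WNK463, where ATP6V0C was at 273 ± 11.9. On the CPM scale ATP6V0B read 119.7, 103 and 108 CPM in Control and 142, 139 and 161 CPM in WNK463. These groups did not overlap, and the log2 fold change was 0.42 (SE 0.06, adjusted p = 1.6e-05).

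The remaining V0 subunits that the rule matched did not pass. ATP6V0C, the main proteolipid of the ring, was at 121 ± 3.26 CPM in Control and 131 ± 5.74 CPM in WNK463 (adjusted p = 0.057) and passed under 6 of 13 alternative settings. ATP6V0D1, which links the ring to the central stalk, had a log2 fold change of -0.05, and ATP6V0E1 and ATP6V0E2, small membrane subunits, had -0.02 and -0.22. In each of these 3 the groups overlapped. ATP6V0A4 and ATP6V0D2, isoforms known from kidney and from osteoclasts and kidney, had 0 counts in all 6 libraries, which allows up to 0.206 CPM in a library.

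The V1 sector had 8 higher and 1 lower of 12 genes tested, with a median log2 fold change of 0.37. ATP6V1A, the catalytic subunit that splits ATP, measured 72.3, 75.0 and 70.1 CPM in Control and 149, 143 and 149.8 CPM in WNK463. The samples of each group lay close together and far from the other group, with a log2 fold change of 1.02 (SE 0.05, adjusted p = 1.2e-11). ATP6V1B2, its partner subunit in the catalytic head, rose far less, from 286 ± 8.33 to 331 ± 8.09 CPM (1.16-fold). ATP6V1B1, the kidney isoform of that partner, was near the detection limit at 0.561 and 0.974 CPM and did not pass (adjusted p = 0.13).

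The stalk and regulatory subunits of V1 varied. ATP6V1D, of the central rotor, rose 1.62-fold and ATP6V1H, a regulatory subunit, 1.65-fold. ATP6V1F, another rotor subunit and the V1 subunit with the highest mean TPM, was at 88.3, 89.9 and 90.6 CPM in Control and 103, 104 and 104 CPM in WNK463. The rise was small beside a very tight spread, with a log2 fold change of 0.21 (SE 0.05, adjusted p = 0.0012). ATP6V1E1 and ATP6V1G1, of the peripheral stalks, rose 1.34-fold and 1.24-fold. ATP6V1C1, which joins the stalks and is involved in assembly of the 2 sectors, had a log2 fold change of -0.02 and its groups overlapped. On the TPM scale it passed as higher, at 0.33 with limma on log2(TPM + 1) (adjusted p = 0.012), and its counts per TPM changed by -0.18 on the log2 scale. Of 54 members with at least 100 counts in every sample, 9 (16.7%) changed by more than 0.1 in that ratio, beside 17.2% of all such genes.

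The low-level isoforms of the V1 stalks moved in opposite directions. ATP6V1G2, known mainly from brain, had 6, 4 and 9 counts in Control and 86, 95 and 82 after treatment. Every treated sample was far above every control, but the level remained low, at 0.396 ± 0.140 and 5.32 ± 0.179 CPM (SD, n = 3 per group). Its log2 fold change was 3.71 (SE 0.30, adjusted p = 4.4e-09). ATP6V1G2, at positions 31544462 to 31548427 of the minus strand of chromosome 6 (GRCh38, GENCODE 29), overlaps the readthrough transcript ATP6V1G2-DDX39B on the same strand and NFKBIL1 on the other, and the assignment of reads among them is uncertain. The readthrough row, which also matched the symbol rule, had 10, 38 and 53 counts in Control and 43, 43 and 19 in WNK463, with no separation of the groups. ATP6V1E2, known mainly from testis, had 37, 31 and 38 counts in Control and 16, 19 and 21 in WNK463. It was the V-ATPase row that fell, with a log2 fold change of -0.97 (SE 0.29, adjusted p = 0.0061). ATP6V1C2 was at about 1 CPM in both groups and did not pass, and ATP6V1G3 had 0 counts in all libraries.

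**Figure D3:**
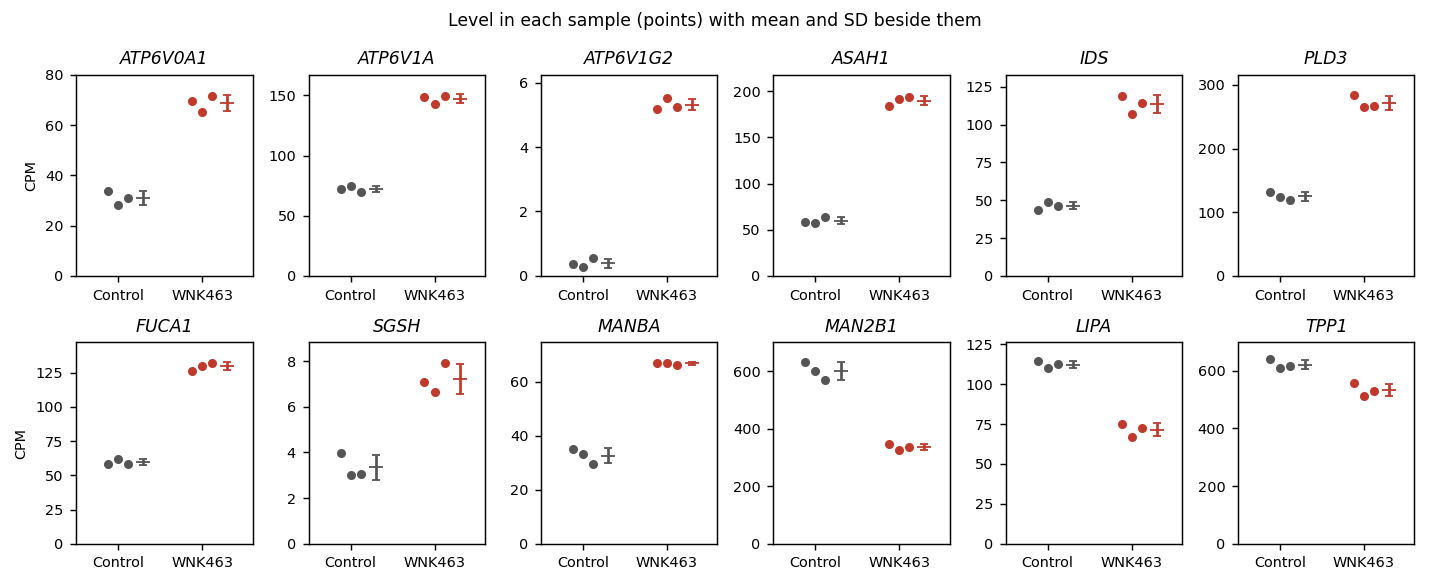
CPM of 12 members in each of the 6 samples (points; grey Control, red WNK463), with the mean and SD of each group beside them; every axis starts at 0. The 9 members at least 2-fold higher are followed by MAN2B1, LIPA and TPP1, which were lower, and the groups do not overlap in any of the 12.

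Where the pump has alternative genes for a subunit, their shares of the family's summed TPM were compared. For subunit a, the family also includes TCIRG1, the a3 isoform of osteoclasts and lysosomes, whose symbol the rule does not match. ATP6V0A1 held 10.6%, 9.38% and 11.6% of this sum in Control and 20.5%, 21.8% and 21.9% in WNK463. TCIRG1 held 69.8%, 71.0% and 65.8% in Control and 56.1%, 57.0% and 56.5% in WNK463, and ATP6V0A2 went from 20.6% ± 1.73 to 22.1% ± 1.19 (SD, n = 3 per group; exact permutation p = 0.30). With deposited counts in place of TPM the share of ATP6V0A2 went from 32.6% ± 1.63 to 36.7% ± 0.701, without overlap (exact two-sided permutation p = 0.10). On the TPM scale the shares of ATP6V0A1 and TCIRG1 did not overlap between groups (exact two-sided permutation p = 0.10, the smallest that 3 against 3 samples can give). TCIRG1 itself was at 115 ± 9.67 and 104 ± 1.89 CPM, with overlapping groups and a log2 fold change of -0.15 (SE 0.06, adjusted p = 0.034) that was 0.00 with total counts, and its mean TPM was 97.2 and 98.2. That call was lost without Control 1, without Control 2 or without any 1 of the WNK463 samples, with adjusted p from 0.054 to 0.11 in edgeR's test.

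In the other families 1 gene held nearly the whole sum. ATP6V1G2 had 0.652% ± 0.184 of the subunit G sum in Control and 6.95% ± 0.438 in WNK463, and ATP6V1E2 had 1.47% ± 0.0671 and 0.568% ± 0.0995 of the subunit E sum (SD, n = 3 per group; exact permutation p = 0.10 each). In both families the groups did not overlap. The shares of ATP6V0E2, ATP6V1B1 and ATP6V1C2 overlapped between groups (exact permutation p = 0.30, 0.30 and 0.70). Subunit d came from ATP6V0D1 alone in every library.

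**Figure D4:**
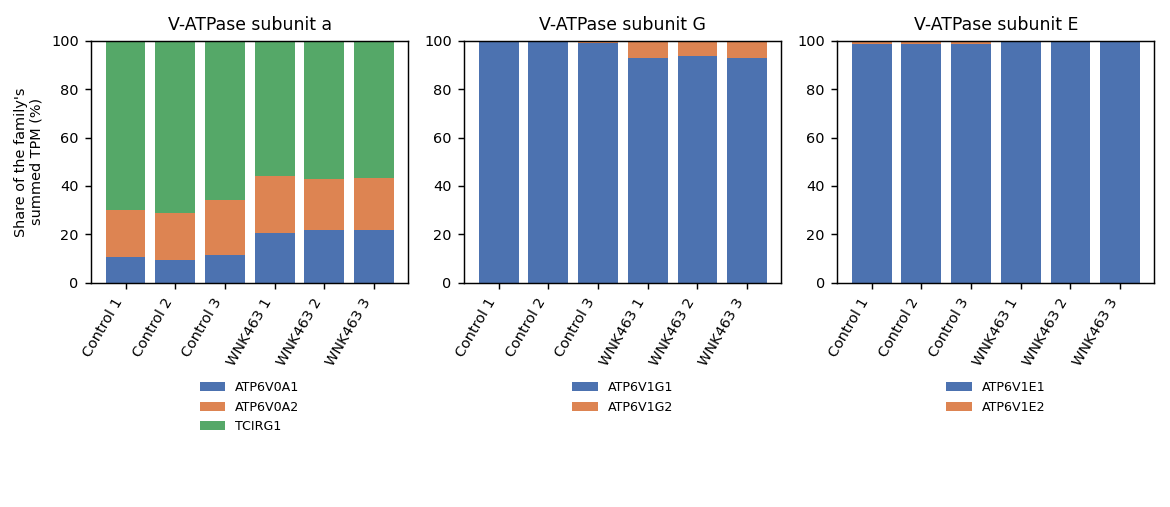
Share of each gene in the summed TPM of its V-ATPase subunit family (%), in each of the 6 samples, for subunits a, G and E; a gene with 0 counts in every library is not drawn. ATP6V0A1 rises from about 10.5% to 21.4% of subunit a while TCIRG1 falls from 68.8% to 56.5%, and ATP6V1G1 and ATP6V1E1 hold over 90% of their families in every sample.

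Among the 8 hydrolases of glycans, 6 were higher (75%) and 2 lower (25%), beside 35.5% and 35.3% of all genes. FUCA1, the α-fucosidase, measured 58.3, 61.9 and 58.5 CPM in Control and 126, 130.1 and 132 CPM in WNK463. The groups were clearly apart, with a log2 fold change of 1.12 (SE 0.05, adjusted p = 4.2e-12). MANBA, the β-mannosidase, measured 34.9, 33.1 and 29.5 CPM in Control and 66.9, 66.9 and 66.2 CPM in WNK463, a 2.05-fold rise (adjusted p = 3.1e-10). MAN2B1, the α-mannosidase that acts on the same class of N-linked glycans, went the other way. It had the highest mean TPM of the glycan hydrolases and read 633, 601 and 569 CPM in Control and 347, 327 and 335 CPM in WNK463. Each treated sample was far below each control, with a log2 fold change of -0.84 (SE 0.05, adjusted p = 5.7e-11).

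The other glycan hydrolases changed less. NEU1, a sialidase, rose 1.34-fold, HEXA, the α subunit of β-hexosaminidase, 1.31-fold and GLB1, the β-galactosidase, 1.26-fold. GAA, which degrades glycogen, was called higher at 92.2 ± 6.57 and 102 ± 3.65 CPM (log2 fold change 0.14, adjusted p = 0.039), but its groups overlapped and it missed the threshold under 6 of 13 alternatives. AGA, which cleaves the bond between glycan and asparagine, fell from 14.1 ± 0.532 to 10.1 ± 0.715 CPM (log2 fold change -0.48, adjusted p = 0.00067).

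Of the 7 hydrolases of glycosaminoglycans, 3 were higher (42.9%) and 2 lower (28.6%), near the 35.5% and 35.3% of all genes. IDS, the iduronate sulfatase, measured 43.9, 48.8 and 46.4 CPM in Control and 119, 107 and 115 CPM in WNK463. This was a 2.45-fold rise without overlap (log2 fold change 1.29, SE 0.06, adjusted p = 3.8e-12), and a near-identical pseudogene, IDSP1, may share some of its reads. SGSH, the heparan N-sulfatase, was low, at 3.96, 3.02 and 3.05 CPM in Control and 7.07, 6.63 and 7.92 CPM in WNK463. It too showed no overlap, with a larger error (log2 fold change 1.10, SE 0.18, adjusted p = 2.5e-05). ARSB, which removes sulfate from dermatan sulfate, rose 1.16-fold.

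GALNS and GUSB were lower in the same class. GALNS, the sulfatase of keratan sulfate, read 32.0, 29.0 and 29.3 CPM in Control and 22.5, 22.0 and 23.6 CPM in WNK463 (log2 fold change -0.41, SE 0.08, adjusted p = 0.00016). GUSB, the β-glucuronidase and the member of this class with the highest mean TPM, read 139, 136 and 134 CPM in Control and 109, 103 and 114 CPM in WNK463 (log2 fold change -0.33, SE 0.05, adjusted p = 2.3e-05). Neither gene's groups overlapped, and the GUSB call was lost in both fits on TPM. IDUA and NAGLU, which act on heparan sulfate, had log2 fold changes of 0.15 and -0.04 and did not pass.

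Of the 6 lipid hydrolases, 3 were higher (50%) and 2 lower (33.3%), beside 35.5% and 35.3% of all genes. ASAH1, the acid ceramidase, which splits ceramide into sphingosine and a fatty acid, showed the largest rise of all hydrolases. It measured 57.8, 57.2 and 64.0 CPM in Control and 184, 191 and 194 CPM in WNK463. Treated samples were about 3 times the controls, with a log2 fold change of 1.67 (SE 0.06, adjusted p = 6.1e-14), and its mean TPM went from 53.9 ± 3.31 to 189.8 ± 5.88 (SD, n = 3 per group). In Control it stood below GLA and LIPA, at 108 ± 10.5 and 83.5 ± 0.932 TPM, and in WNK463 above both, at 120.3 ± 4.10 and 60.9 ± 3.14 TPM. GALC, which removes galactose from galactosylceramide, rose 1.58-fold, and SMPD1, the acid sphingomyelinase, which releases ceramide, rose 1.33-fold. GLA, the α-galactosidase, was at 77.3 ± 8.23 and 75.3 ± 2.65 CPM and did not pass (adjusted p = 0.63).

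LIPA, the acid lipase of cholesteryl esters and triglycerides, measured 114, 109.9 and 113 CPM in Control and 74.9, 67.1 and 72.8 CPM in WNK463. All treated samples were below all controls (log2 fold change -0.65, SE 0.06, adjusted p = 1e-08). ARSA, the sulfatase of sulfatide, had a small fall (log2 fold change -0.25, adjusted p = 0.015) that missed the threshold under 5 of 13 alternatives.

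The last hydrolases act on proteins, lipidated proteins and nucleic acids. Of 3 tested, 1 was higher (33.3%) and 2 lower (66.7%), beside 35.5% and 35.3% of all genes. PLD3, a lysosomal exonuclease of single-stranded nucleic acids, measured 132, 124 and 119 CPM in Control and 284, 265 and 266 CPM in WNK463, a 2.18-fold rise (adjusted p = 3.5e-12). TPP1, a tripeptidyl peptidase and the member of this class with the highest mean TPM, read 639.6, 608 and 614 CPM in Control and 555, 511 and 531 CPM in WNK463 (log2 fold change -0.22, SE 0.05, adjusted p = 0.00033). PPT1, which removes palmitate from proteins, read 318, 305 and 306 CPM in Control and 266, 259.8 and 259 CPM in WNK463 (log2 fold change -0.24, SE 0.04, adjusted p = 9.4e-05). The groups did not overlap in either, but both calls were lost with total counts and in both fits on TPM, where the log2 fold changes of TPP1 lay between -0.09 and -0.07 and those of PPT1 between -0.09 and -0.05. LGMN, the asparaginyl endopeptidase, had 1 to 5 counts per library and was not tested.

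Of the soluble cofactors, 3 of 4 were higher (75%) and 0 lower, beside 35.5% and 35.3% of all genes. GM2A, which lifts a ganglioside out of the membrane for β-hexosaminidase, measured 79.0, 77.5 and 75.1 CPM in Control and 122, 122 and 128 CPM in WNK463 (log2 fold change 0.68, SE 0.05, adjusted p = 2e-09). PSAP, the precursor of the saposins that assist sphingolipid hydrolases, rose 1.54-fold, from 162 ± 9.25 to 251 ± 11.2 CPM. GRN, the precursor of the granulins, read 499, 440.3 and 431 CPM in Control and 592, 531 and 587 CPM in WNK463. Its groups did not overlap (log2 fold change 0.32, SE 0.06, adjusted p = 8.3e-05), and its mean TPM of 415 and 593 was the highest of all members in each group. NPC2, the soluble cholesterol carrier, was at 20.9 ± 2.22 and 23.4 ± 1.96 CPM and did not pass (adjusted p = 0.14), but it passed as higher under 3 of 13 alternatives.

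Of the 9 membrane proteins, 6 were higher (66.7%) and 1 lower (11.1%), beside 35.5% and 35.3% of all genes. SCARB2, the receptor that carries β-glucocerebrosidase to the lysosome, showed the largest rise, from 30.5, 32.5 and 31.8 CPM in Control to 53.0, 59.5 and 57.8 CPM in WNK463 (log2 fold change 0.84, SE 0.07, adjusted p = 4.6e-09). CLN3, the protein of juvenile neuronal ceroid lipofuscinosis, rose 1.59-fold and NPC1, the cholesterol exporter, 1.25-fold. The main glycoproteins of the lysosomal membrane rose by less. LAMP1 measured 258, 232 and 235 CPM in Control and 306, 289 and 301 CPM in WNK463 (log2 fold change 0.30, SE 0.05, adjusted p = 3.5e-05). LAMP2 measured 311, 326 and 323 CPM in Control and 378, 371 and 385 CPM in WNK463 (log2 fold change 0.24, SE 0.04, adjusted p = 0.0001). In neither did the groups overlap.

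CD63, a tetraspanin of lysosomes and exosomes with the highest mean TPM of the membrane proteins, read 144, 129.7 and 126 CPM in Control and 159, 165 and 169 CPM in WNK463 (log2 fold change 0.30, SE 0.06, adjusted p = 0.00011). CD68, a LAMP-family protein used as a macrophage marker, read 188, 175 and 174 CPM in Control and 172, 159 and 155 CPM in WNK463. The groups stood just apart and the fall was small (log2 fold change -0.14, SE 0.05, adjusted p = 0.022), and with total counts it was 0.01. Without Control 1, WNK463 2 or WNK463 3 it did not pass. CTNS, the cystine exporter, and MCOLN1, a calcium channel, had log2 fold changes of 0.07 and 0.08 and did not pass. CTNS passed as higher under 3 of 13 alternatives, at 0.22 to 0.49, and MCOLN1 under 1, at 0.23. The groups of CTNS did not overlap in CPM, and its counts per TPM changed by -0.26 on the log2 scale.

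Of the sorting receptors, only IGF2R, the large mannose 6-phosphate receptor, passed. It measured 363, 361 and 351 CPM in Control and 432, 389 and 415 CPM in WNK463, without overlap (log2 fold change 0.20, SE 0.05, adjusted p = 0.0011). M6PR, the small mannose 6-phosphate receptor and the most abundant of the 3 per length, read 306, 315 and 325 CPM in Control and 332, 325 and 336 CPM in WNK463. The rise did not pass (log2 fold change 0.07, SE 0.04, adjusted p = 0.17). SORT1, which sorts prosaposin among others, was at 1.91 ± 0.210 and 2.79 ± 0.680 CPM (adjusted p = 0.070). With total counts or upper-quartile scaling all 3 sorting receptors passed as higher, scalings under which 46.1% and 41.7% of all genes were higher.

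The transcription factors that bind CACGTG elements were themselves higher. TFE3 measured 43.5, 45.1 and 42.8 CPM in Control and 62.6, 56.7 and 63.6 CPM in WNK463 (log2 fold change 0.48, SE 0.06, adjusted p = 3.3e-06). TFEB measured 26.1, 18.1 and 22.6 CPM in Control and 29.0, 28.1 and 27.1 CPM in WNK463 (log2 fold change 0.33, SE 0.10, adjusted p = 0.0090), where Control 1 lay only a little below the treated samples. MITF was at 2.13, 1.99 and 2.26 CPM in Control and 3.87, 2.62 and 3.19 CPM in WNK463 (log2 fold change 0.60, SE 0.24, adjusted p = 0.037), and its call was lost under 9 of 13 alternatives. These factors are regulated largely by their entry into the nucleus, which RNA levels do not measure.

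Summed over all 67 members, the TPM were 5544, 5375 and 5332 in Control and 7139.6, 6981 and 7111 in WNK463. The sums did not overlap, with means of 0.542% and 0.708% of all TPM. On this scale the V-ATPase sum rose 1.37 times, with V1 at 1.44 and V0 at 1.29, the hydrolase sum 1.22 times, the membrane proteins 1.29 times and the cofactors 1.50 times. The median log2 fold change over all genes was also above 0 on TPM, at 0.16 with limma on log2(TPM + 1) and 0.18 on log2(TPM + 0.1). On the CPM scale the hydrolase sum was nearly level, at 2682 ± 85.9 and 2748 ± 64.4 (1.02 times), with overlapping groups, and the V-ATPase sum rose 1.25 times. Per length, levels of single members spanned from under 1 TPM to 593 TPM. GRN, TPP1, MAN2B1, M6PR, PPT1, ATP6V1F, CD63, CD68, ATP6V0B and ATP6V0C each had a mean of over 200 TPM in both groups. TPP1 and MAN2B1, next after GRN in Control at 362 ± 1.97 and 357 ± 15.9 TPM, differed by less than their spread there. In WNK463 they stood at 339.5 ± 21.5 and 231 ± 6.23 TPM.

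**Figure D5:**
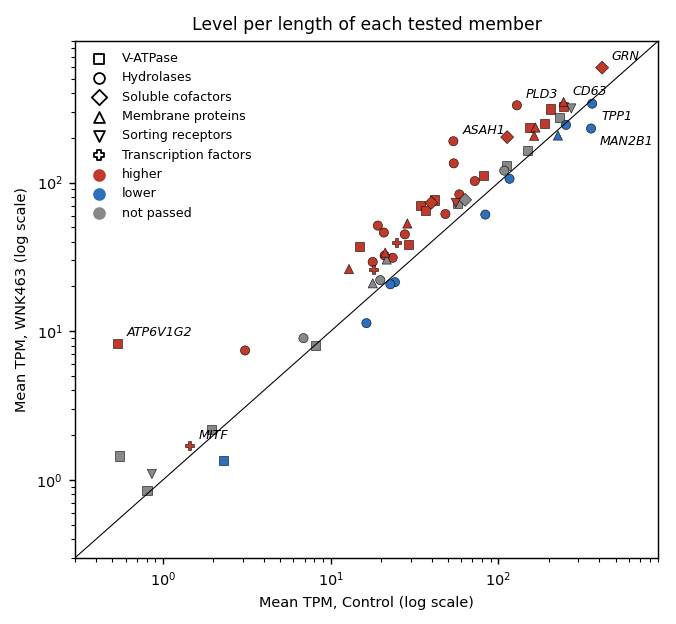
Mean TPM in Control (horizontal) against mean TPM in WNK463 (vertical) of each tested member, both on log scales, n = 3 per group; shape gives the class, colour the call by edgeR on counts, and the line marks equal levels. Most members lie above the line, ATP6V1G2 farthest from it, and MAN2B1 lies clearly below it at 357 and 231 TPM. The median over all genes was also higher in WNK463 on TPM (log2 fold change 0.16 with limma on log2(TPM + 1)).

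Other lysosomal genes were taken from lists outside the member list. Their shares stand beside 35.5% higher and 35.3% lower over all genes tested. Of 17 further hydrolases, 8 were higher (47.1%) and 4 lower (23.5%), and at least 2-fold higher were DNASE2 and SCPEP1. DNASE2, the acid DNase, was at 0.548, 0.892 and 1.34 CPM in Control and 9.06, 10.1 and 10.2 CPM in WNK463 (log2 fold change 3.39, SE 0.23, adjusted p = 5.1e-10). SCPEP1, a serine carboxypeptidase-like protein, rose from 63.1 ± 1.58 to 128 ± 5.19 CPM (log2 fold change 1.02, SE 0.05, adjusted p = 1.9e-11). Of 15 further membrane proteins tested, 11 were higher (73.3%) and 3 lower (20%). SLC17A5, the sialic acid exporter, was among the higher, at 9.04 ± 0.61 and 23.9 ± 0.97 CPM (log2 fold change 1.40, SE 0.10, adjusted p = 6.7e-10). Of 5 genes that make or process the sorting tag and sulfatase residue, 2 were higher (40%) and 1 lower (20%).

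The list of partners of the proton pump also held TCIRG1, itself a gene of subunit a. Of the 12 genes listed, 9 (75%) were higher and 1 lower, beside 35.5% and 35.3% of all genes. TCIRG1 was the 1 called lower. The higher genes included TLDC2, of a family that binds V1, whose rise was large but from few counts (1.07 ± 0.501 to 2.28 ± 0.867 CPM, log2 fold change 1.11, SE 0.38, adjusted p = 0.014). Of 13 genes of the carriers between Golgi, endosome and lysosome, 3 were higher and 8 lower with TMM, and 4 and 5 with total counts, a scaling under which 46.1% of all genes were higher and 26.1% lower. AP1S2, a small subunit of the AP-1 adaptor, was the carrier gene at least 2-fold higher (208 ± 20.1 to 457 ± 14.4 CPM, log2 fold change 1.13, SE 0.06, adjusted p = 1.3e-11). Of 15 nutrient-sensing genes tested, 6 were higher (40%) and 5 lower (33.3%) with TMM, near the shares of all genes. With total counts 7 were higher and 2 lower.

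Some monocyte and macrophage genes rose with the treatment. CD68, also used as a macrophage marker, was counted with the members and called lower (179 ± 7.87 and 162 ± 8.90 CPM, log2 fold change -0.14, edgeR adjusted p = 0.022). That call was lost under several alternatives, as given above. Of 13 markers listed apart from CD68, 8 passed the filter on low counts. Of the 8, 6 (75%) were higher and 0 lower, beside 35.5% and 35.3% of all genes. The other 2 did not pass: FCGR1A, at 47.0 ± 1.22 and 45.4 ± 1.19 CPM (log2 fold change -0.05), and MARCO, at 1.76 ± 0.752 and 1.45 ± 0.405 CPM (log2 fold change -0.27). APOE had 0, 2 and 0 counts in Control and 16, 18 and 12 in WNK463. C1QB had 0, 1 and 0, then 18, 11 and 23, and C1QC 2, 4 and 1, then 64, 60 and 55. These genes passed the filter only through the WNK463 samples, and C1QA (24, 4 and 20 counts in Control) also needed them. The filter thus partly set the 75%. CSF1R, a macrophage growth factor receptor, was at 58.6 ± 4.78 and 114 ± 10.3 CPM, ITGAM at 5.67 ± 0.319 and 13.5 ± 1.04 CPM and the complement gene C1QA at 0.985 ± 0.627 and 13.1 ± 1.12 CPM. The list summed to between 109 and 119 CPM in Control and between 182 and 204 CPM in WNK463, and CSF1R was its largest part in both groups. CD14, CD163, MRC1, MSR1 and VSIG4 were below the filter, with CD163 at 0 counts in 5 of the 6 libraries. The part of this shift in the lysosomal changes was not tested.

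Several named genes overlap a gene on the other strand in GENCODE 29: SGSH (CARD14, SLC26A11), LIPA (IFIT2, IFIT3, IFIT1B, IFIT1), PLD3 (C19orf47, HIPK4), GALNS (TRAPPC2L), PPT1 (CAP1), GM2A (CCDC69), SCARB2 (FAM47E), IGF2R (AIRN), M6PR (PHC1), ATP6V1F (KCP), ATP6V1E2 (RHOQ) and, outside the members, TLDC2 (SAMHD1). The strand setting of the counting is not given in the sources used here, so reads of such pairs may not be told apart. Other named genes overlap a gene on their own strand, where no strand setting can separate reads. These include ATP6V0A1 (AC107993.1, AC067852.3), IDS (AC244197.3, AC244197.2), MANBA (LRRC37A15P, KRT8P46), MAN2B1 (AC010422.3, AC010422.5) and PLD3 (AC118344.2). The same holds for TPP1 (AC091564.7), CD68 (AC016876.2), IGF2R (AL353625.1) and, outside the members, SCPEP1 (AC004584.3). On GRCh38 the members at least 2-fold higher other than ATP6V1G2 lie as follows. ATP6V0A1 is on chromosome 17 from 42458844 to 42522611 and ATP6V1A on chromosome 3 from 113747019 to 113812056. FUCA1 is on chromosome 1 from 23845077 to 23868294 and MANBA on chromosome 4 from 102630770 to 102760994. IDS is on chromosome X from 149476990 to 149521096 and SGSH on chromosome 17 from 80206716 to 80220923. ASAH1 is on chromosome 8 from 18055992 to 18084998 and PLD3 on chromosome 19 from 40348456 to 40380439. MAN2B1, the member with the largest fall among the hydrolases, is on chromosome 19 from 12646511 to 12666742.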

How the data were processed

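RNA-seq values of 3 Control and 3 WNK463 samples of MV4-11 cells were used. The authors deposited estimated counts per gene as whole numbers, without normalization, and TPM values that sum to 1000000 per sample. For 62 values the deposited count is 0 while the TPM is above 0. The submitters' processing notes name fastp, Bowtie2, HISAT2, StringTie, RSEM, DESeq2, edgeR and GRCh38, with neither roles nor versions. The table also holds group means of TPM, and the authors deposited a log2 fold change and a p-value with its adjustment for each gene; these columns were not used. Of 20348 rows, 629 carry no symbol.

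Counts were tested with edgeR 4.0.16 in R 4.3.3 (quasi-likelihood test, TMM factors, filterByExpr at its defaults, Benjamini-Hochberg adjustment over the 11973 genes tested, no replicate block). The standard error of a log2 fold change was taken from its size and the F statistic. The biological coefficient of variation was 5.21%. A count of 0 was taken to allow up to 3 counts, between 0.174 and 0.206 CPM per library, which covers counting error only. Isoform shares were compared with exact two-sided permutation tests. Alternatives were DESeq2 1.42.0, other scalings, no filter, other thresholds, a replicate block, limma 3.58.1 on log2 TPM with pseudocounts of 1 and 0.1, deposited counts for the isoform shares, and fits without each of the samples. The fits were first tested on simulated data.

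Named are members at least 2-fold changed, the largest rise and fall and the highest mean TPM of each class, LAMP1, LAMP2, TFEB, TFE3, MITF and the other lysosomal genes at least 2-fold changed; TCIRG1 was named for its subunit family, and marker genes and further members were named after their values were seen. Members, lists and tests were chosen with earlier results of these data known. CACGTG and its 8- and 10-base palindromic extensions were searched in promoter windows; 16 members had none. Replicate pairs of a group differed by more than counting noise.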

Additional observations from a re-analysis of the deposited data

How the results depend on the processing

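Over 63 members and 13 alternative fits, 758 of 819 combinations kept their side of the threshold, 36 lost a call, 22 gained one and 3 changed sign with a call in one of the fits; the causes were not tested. Of the 758, 720 also kept their sign, and 38, from 7 members near 0 that passed in neither fit, did not: ATP6V0D1, ATP6V0E1, ATP6V1C1, ATP6V1C2, ATP6V1G2-DDX39B, GLA and NAGLU. ATP6V1C1, not called on counts, was at 0.33 with limma on both TPM scales, and CD68 at 0.0075 with total counts. At a 2-fold threshold 3 V-ATPase members, 6 hydrolases and 0 others were higher and 0 of each lower. The hydrolases called lower, 8 as reported, were 5 with total counts, 4 on log2(TPM + 1) and 3 on log2(TPM + 0.1). CD68, the 1 membrane, cofactor or sorting member called lower, left 0 with total counts, upper-quartile scaling, both TPM fits and an adjusted p below 0.01. With 1 sample left out, that count was 0 to 1, V-ATPase members higher 11 to 12 and lower 1 to 1, hydrolases higher 12 to 13 and lower 7 to 8, and the other members higher 10 to 11. The difference in isoform share then ranged, in percentage points, from 10.3 to 11.4 for ATP6V0A1, 0.75 to 2.44 for ATP6V0A2, -13.9 to -11.2 for TCIRG1, 6.15 to 6.55 for ATP6V1G2, -0.951 to -0.852 for ATP6V1E2, -1.34 to -0.542 for ATP6V0E2, 0.0805 to 0.404 for ATP6V1B1 and -0.575 to 0.150 for ATP6V1C2, whose sign changed without Control 2. With deposited counts in place of TPM it was 4.14 for ATP6V0A2, beside 1.44, 0.0966 for ATP6V1B1, beside 0.286, and -0.0702 for ATP6V1C2, beside -0.237.

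Same-numbered samples of the groups did not deviate together (r = 0.02, -0.01 and -0.05). The labels do not say whether same-numbered samples were handled as pairs, and these values cannot show it. With the replicate number as a block, 36 members were higher and 10 lower, with 11 and 1 for the V-ATPase, 13 and 8 for the hydrolases and 10 and 1 for the membrane, cofactor and sorting members. Depth limited the genes with few counts: ATP6V1B1, ATP6V1C2, SORT1 and MITF had standard errors of 0.24 to 0.45 on the log2 scale. Changes of that size were not detectable, and some larger ones did not pass either. The log2 fold changes of SORT1 and ATP6V1B1, at 0.56 and 0.77, were among those. Interpretation is also limited by the single line, dose and time, by estimated counts whose handling of shared reads is not known, and by a scaling that sets the zero point.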
